A study of Mus musculus with 12 samples.

Results

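The comparison described here set mouse peritoneal macrophages that received Remodelin hydrobromide and then IFN y (interferon gamma) against macrophages that received neither agent. Its members are the 3 combined libraries and the 3 untreated libraries, chosen by the treatment in the sample labels, 6 of the 12 RNA-seq libraries in the series. The other libraries are 3 with IFN y alone and 3 with Remodelin alone. They entered the same statistical fit and are shown beside the combined group where a result turns on them. All cells were kept in RPMI 1640 medium with serum and antibiotics, and RNA was taken with Trizol. The labels give no dose, no duration, no strain and no age, and leave unsaid whether replicate libraries represent different animals or cultures. What the p-values below capture is the variation among these libraries, and it may be technical variation. The libraries are bulk RNA, so fewer cells of a type and less RNA per cell cannot be told apart.

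IFN y is the cytokine by which T cells and NK cells activate macrophages. It acts through a cell-surface receptor and its JAK kinases, and its classical targets include Irf1, Socs1, the guanylate-binding proteins, Cxcl9 and Cxcl10, the antigen-presentation genes and Nos2. Remodelin is a small molecule described as an inhibitor of NAT10, the enzyme that places N4-acetylcytidine (ac4C) on ribosomal, transfer and messenger RNA with the help of the adaptor Thumpd1 on transfer RNA. The title of the series concerns reduced ac4C in macrophages and liver cancer. Peritoneal macrophages are lavage cells of the body cavity, whose lining is mesothelium, and mesothelial or stromal cells can accompany them.

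The 12 libraries held 15917454 to 19418665 reads assigned to genes, and levels are given below as CPM, counts scaled to a common library size with factors from the trimmed mean of M-values. A count of 3 reads, used here as the floor of detection, corresponds to 0.154 to 0.188 CPM in the 6 libraries compared. The macrophage markers summed to 16444 to 24394 CPM in the untreated and 17711 to 25147 CPM in the combined libraries, and 0 of their 11 genes passed the test. Lyz2 had a mean of 18342 CPM in untreated and 18030 CPM in combined libraries, and Cd68 1641 and 1382 CPM. The labelled cell type and its markers therefore did not conflict.

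The 6 libraries differed in how their levels ran with the GC content of the genes. The Spearman correlation, across genes, between GC content and a library's deviation from the mean of all libraries was 0.123, 0.534 and 0.550 in untreated libraries 1 to 3, and -0.690, -0.115 and -0.255 in combined libraries 1 to 3. Genes are not independent replicates, and these values are descriptions. Combined library 1 stood farthest out on the first principal component, which held 29.3% of the variance, at 53.2 against 9.55 and 14.8 for the other two combined libraries. Untreated libraries 2 and 3 lay at the opposite end, at -32.6 and -34.3, and untreated library 1 at -8.38. Genes under 40% GC had a median log2 fold change, combined over untreated, of 0.54, and genes at or above 55% GC had a median of -0.36. The comparison was therefore also run with a smooth GC trend taken out of every library and with single libraries left out, and the groups of named genes below are given with both. Whether the trend comes from library preparation or from the cells was not tested.

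**Figure D1:**
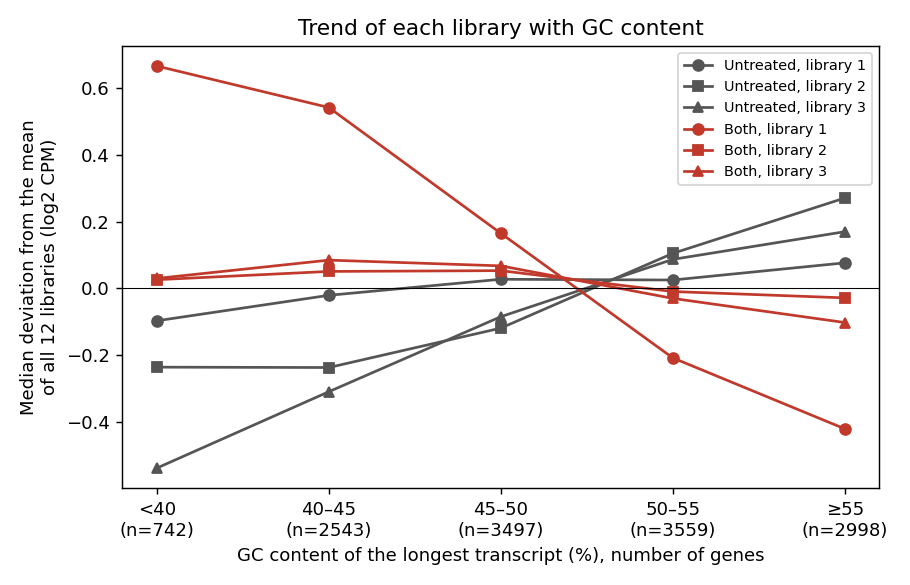
Deviation of gene levels in each library from the mean of all 12 libraries (log2 scale, vertical axis), as the median within bins of gene GC content (percent, horizontal axis), for the 3 untreated and 3 combined libraries. Combined library 1 is highest among GC-poor genes, at 0.67 under 40% GC, and lowest among GC-rich genes, at -0.42, and untreated libraries 2 and 3 run the other way.

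With both agents 605 of 13474 genes tested changed against untreated, 4.49% of those tested (edgeR quasi-likelihood test, Benjamini-Hochberg adjusted p under 0.05). Of these 329 were higher, 2.44%, and 276 lower, 2.05%. The changes were mostly modest, with a median absolute log2 fold change of 0.91 among genes that rose and 0.79 among genes that fell. More than 2-fold differences numbered 121 upward and 73 downward. The 3 untreated and 3 combined values did not overlap for 602 of the 605 genes, whereas 4242 of all genes tested, 31.5%, did not overlap. The genes that rose had a median GC content of 43.0%, those that fell 56.7%, and all genes tested 49.8%. Once the GC trend was removed 156 genes were called (1.16%), 71 higher (0.527%) and 85 lower (0.631%). Of these, 106 were among the 605, and all 605 kept their direction. The genes called higher in that fit had a median GC content of 52.1% and those called lower 50.1%.

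The number of calls depended on single libraries. It was 16 without untreated library 2, 81 without untreated library 3 and 39 without combined library 1. It rose to 1396 without untreated library 1, 1443 without combined library 2 and 1385 without library 1 of Remodelin alone, which is in neither group compared but shares the fit and its count filter. It was 202, 217 and 245 without libraries 1 to 3 of IFN y alone and 366 without library 2 of Remodelin alone. A total of 16 genes kept their call in all 12 of these fits. The 4 that rose were mt-Tp, Gclm, Snhg6 and 1 transcript without an established gene name. Among the 12 that fell were Upk3b, Mgp, Fmod, Mmp9, Chil1, Kcnj8, Clca3a2, Npy, Txnip, Ddit4l and Mcm5. These genes were singled out after their values were seen. Of the 16, 15 were also called with the GC trend removed, the exception being Snhg6 (adjusted p = 0.0825, edgeR). The transcript without an established gene name had no GC value, so no trend was taken out of it and its call there is no check.

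**Figure D2:**
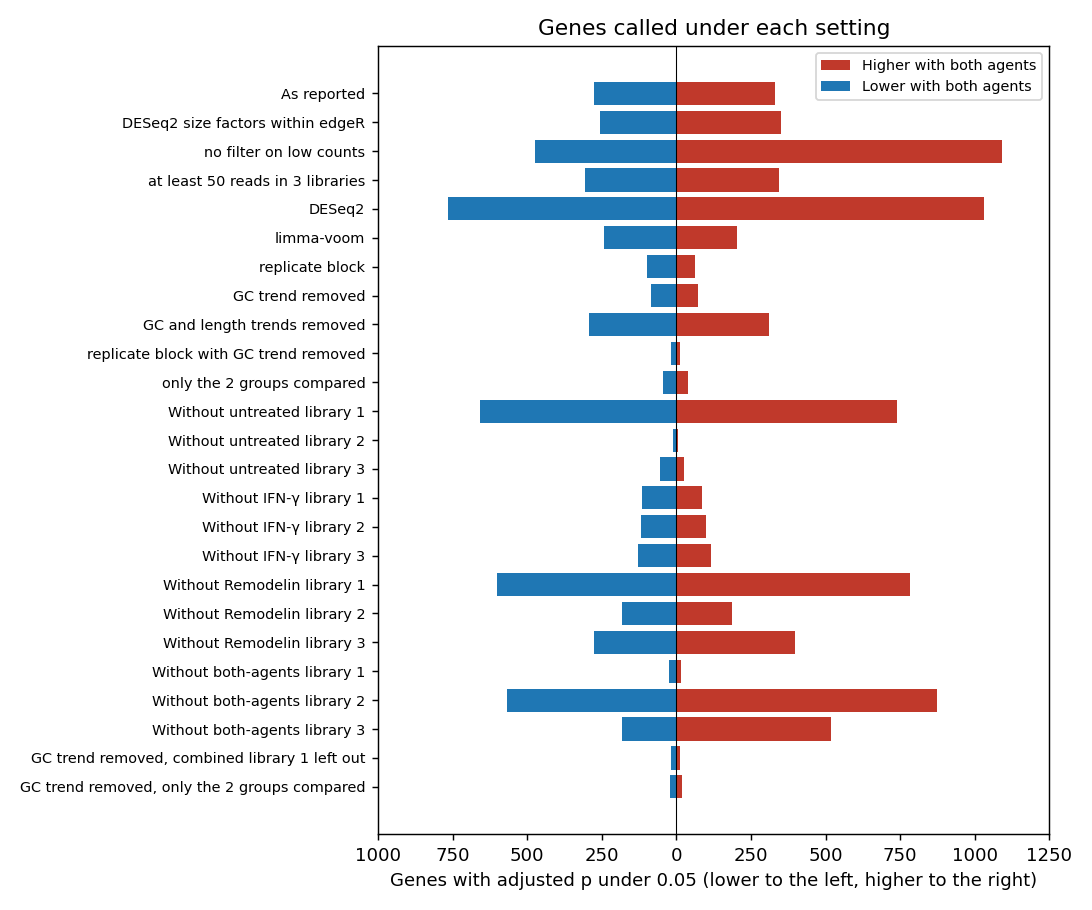
Number of genes called higher and lower in combined against untreated libraries (horizontal axis, genes) under each processing setting and with each library left out (vertical axis). The reported fit gives 329 higher and 276 lower, and the counts run from 16 without untreated library 2 to 1797 with DESeq2.

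Genes of mesothelium and connective tissue fell. Upk3b, a uroplakin made by mesothelial cells and urothelium, was at 39.99, 59.4 and 40.1 CPM in the untreated libraries and at 11.1, 16.6 and 13.9 CPM in the combined libraries. The highest combined value was under the lowest untreated one. It fell by 1.74 ± 0.19 on the log2 scale (± SE, n = 3 against 3, adjusted p = 0.000526, edgeR). Mgp, the matrix Gla protein that restrains calcification, went from 13.7, 16.8 and 18.9 CPM to 5.87, 4.80 and 5.24 CPM, a fall of 1.63 ± 0.20. Fmod, fibromodulin, which binds collagen fibrils, went from 5.57, 4.51 and 4.56 CPM to 1.06, 1.25 and 1.16 CPM, with a log2 fold change of -2.06 ± 0.27. These 3 genes did not overlap between the groups, as was so for 602 of the 605 genes called. The SD within the combined group was 2.74 CPM for Upk3b, 0.54 CPM for Mgp and 0.096 CPM for Fmod.

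The fibrillar collagen Col3a1 fell from 76.3, 53.9 and 47.9 CPM to 16.5, 31.3 and 31.5 CPM (log2 fold change -1.17 ± 0.24, adjusted p = 0.0187, edgeR). Col6a2, a chain of microfibrillar collagen, changed by -1.39 ± 0.29 and Eln, elastin, by -1.20 ± 0.29. In all 3 genes combined library 1 was the lowest of the combined libraries. The simple-epithelial keratin Krt7 changed by -1.28 ± 0.27 and the uroplakin Upk1b by -0.66 ± 0.18. Of the 20 mesothelial and stromal markers 5 fell, 0 rose and the median log2 fold change was -0.37, against 0.01 over all genes tested. Among all genes tested 2.05% fell. The same 5 genes were called after removal of the GC trend, with a median of -0.29. The list did not move as a block: Msln, mesothelin, had a log2 fold change of 0.58 (adjusted p = 0.362), Krt18 of 0.83 (adjusted p = 0.0830) and Dcn, decorin, of 0.66 (adjusted p = 0.123). The summed level of the list was 896 to 1217 CPM in untreated and 644 to 888 CPM in combined libraries. Of the 8 genes named from this group 3 (Upk3b, Mgp and Fmod) kept their call without any single library. The others lost it without 1 or more of untreated libraries 2 or 3, a library of IFN y alone, library 2 of Remodelin alone, or combined library 1 or 3 (adjusted p 0.0530 to 0.178). Removal of the GC trend left Eln at adjusted p = 0.0855 and the other 7 called.

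Markers of other cells that a peritoneal lavage can hold summed to far less than the macrophage markers, and several of the sums were lower with both agents. B cell markers summed to 23.03 to 27.9 CPM in untreated and 16.2 to 18.7 CPM in combined libraries, and Ighm, the heavy chain of IgM, was the single one of 8 tested that fell (log2 fold change -0.79 ± 0.20). Neutrophil markers summed to 49.7 to 57.0 CPM and 32.5 to 36.2 CPM, with Ly6g and Ngp at 0 in all 6 libraries. The lower sum came mostly from the proteases Mmp9 and Mmp8. Mmp9 was at 16.6 to 25.7 CPM in untreated and 3.87 to 7.46 CPM in combined libraries. Mmp8 was at 7.66 to 9.94 CPM and 2.77 to 6.81 CPM in that order. S100a8, the other large member, was not lower, at 14.6 to 21.99 CPM and 20.5 to 22.9 CPM. Of the 5 neutrophil markers tested, Mmp9 was called. Mast cell and basophil markers summed to 5.10 to 6.73 CPM and 2.09 to 3.31 CPM, with Ms4a2, Fcer1a and Mcpt8 at 0. Dendritic cell markers summed to 19.2 to 23.7 CPM and 14.1 to 16.8 CPM, with Siglech at 0. Batf3 made up most of that sum, at 14.1 to 17.4 CPM and 9.92 to 11.9 CPM. Flt3, Xcr1, Clec9a, Cd209a and Itgae were at 0.43 CPM or less in the 6 libraries. Endothelial markers summed to 93.0 to 113 CPM and 46.4 to 96.6 CPM, which overlapped, with Emcn at 0. Combined library 1 was lowest, at 46.4 CPM, and combined libraries 2 and 3 were at 96.6 and 91.7 CPM. Vwf made up most of that sum, at 86.9 to 107 CPM in untreated and 44.0 to 92.3 CPM in combined libraries. T and NK cell markers (2.53 to 4.40 CPM and 2.81 to 4.54 CPM, with Ncr1, Nkg7 and Gzma at 0), eosinophil markers (2.77 to 4.96 CPM and 2.62 to 4.07 CPM, with Prg2 and Epx at 0), and erythroid and platelet markers (60.7 to 88.0 CPM and 82.0 to 85.5 CPM, with Gp9 at 0) overlapped between the groups. Pf4 made up most of the erythroid and platelet sum, at 60.3 to 78.7 CPM in untreated and 80.0 to 84.7 CPM in combined libraries. The part of these other cells in the falls was not tested.

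Secreted and membrane genes led the other falls. Mmp9, a gelatinase that neutrophils and macrophages release, was at 25.7, 23.7 and 16.6 CPM in untreated and 3.87, 7.46 and 6.41 CPM in combined libraries. It fell by 1.89 ± 0.24 on the log2 scale (adjusted p = 0.00104, edgeR). Chil1, a chitinase-like lectin secreted by macrophages and neutrophils, was at 8.66, 9.77 and 13.8 CPM and then at 2.62, 1.20 and 2.68 CPM, a log2 fold change of -2.32 ± 0.34. Kcnj8, the pore subunit of a potassium channel gated by ATP, had the largest fall of the 16 genes kept throughout, from 4.40, 5.21 and 5.32 CPM to 0.562, 0.418 and 0.932 CPM. Its log2 fold change was -2.96 ± 0.34. Clca3a2, a family member whose near copies make its counts uncertain, changed by -1.74 ± 0.26. Npy, the precursor of neuropeptide Y, is normally known from neurons and reached 186, 212 and 200.1 CPM in untreated macrophages. It was at 106, 113 and 100.3 CPM with both agents (log2 fold change -0.90 ± 0.13).

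Txnip and Ddit4l, which restrain glucose uptake and the growth kinase mTORC1, also fell. Txnip, the arrestin that binds thioredoxin and removes glucose transporters from the membrane, was at 156, 146 and 178 CPM in untreated and 84.7, 79.5 and 78.6 CPM in combined libraries. Its log2 fold change was -0.98 ± 0.13 (adjusted p = 0.00175, edgeR). Ddit4l, an inhibitor of mTORC1, went from 4.40, 4.18 and 3.37 CPM to 0.812, 1.30 and 1.16 CPM, a fall of 1.85 ± 0.27. The list of Txnip, arrestins and FOXO targets had 2 genes lower and 1 higher of 15, against 2.05% and 2.44% of all genes tested. The one that rose was Arrdc3, an arrestin relative of Txnip, with a log2 fold change of 1.10 ± 0.26. The serine protease inhibitor Serpina3g changed by -1.54 ± 0.27, the sphingosine-1-phosphate transporter Spns2 by -1.32 ± 0.21, the adaptor Dok7 by -1.35 ± 0.22 and Cdc42ep1, a binding partner of the GTPase Cdc42, by -1.21 ± 0.25. Serpina3g belongs to a cluster of near-identical genes, so its counts may be shared with its neighbours. Of the 11 genes named as falling here 7 kept the call without any single library. Serpina3g, Spns2, Dok7 and Cdc42ep1 lost it without untreated library 2, and Serpina3g and Cdc42ep1 also without combined library 1 (adjusted p 0.0611 to 0.108). After removal of the GC trend 10 of the 11 were called, Cdc42ep1 being at adjusted p = 0.0585.

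**Figure D3:**
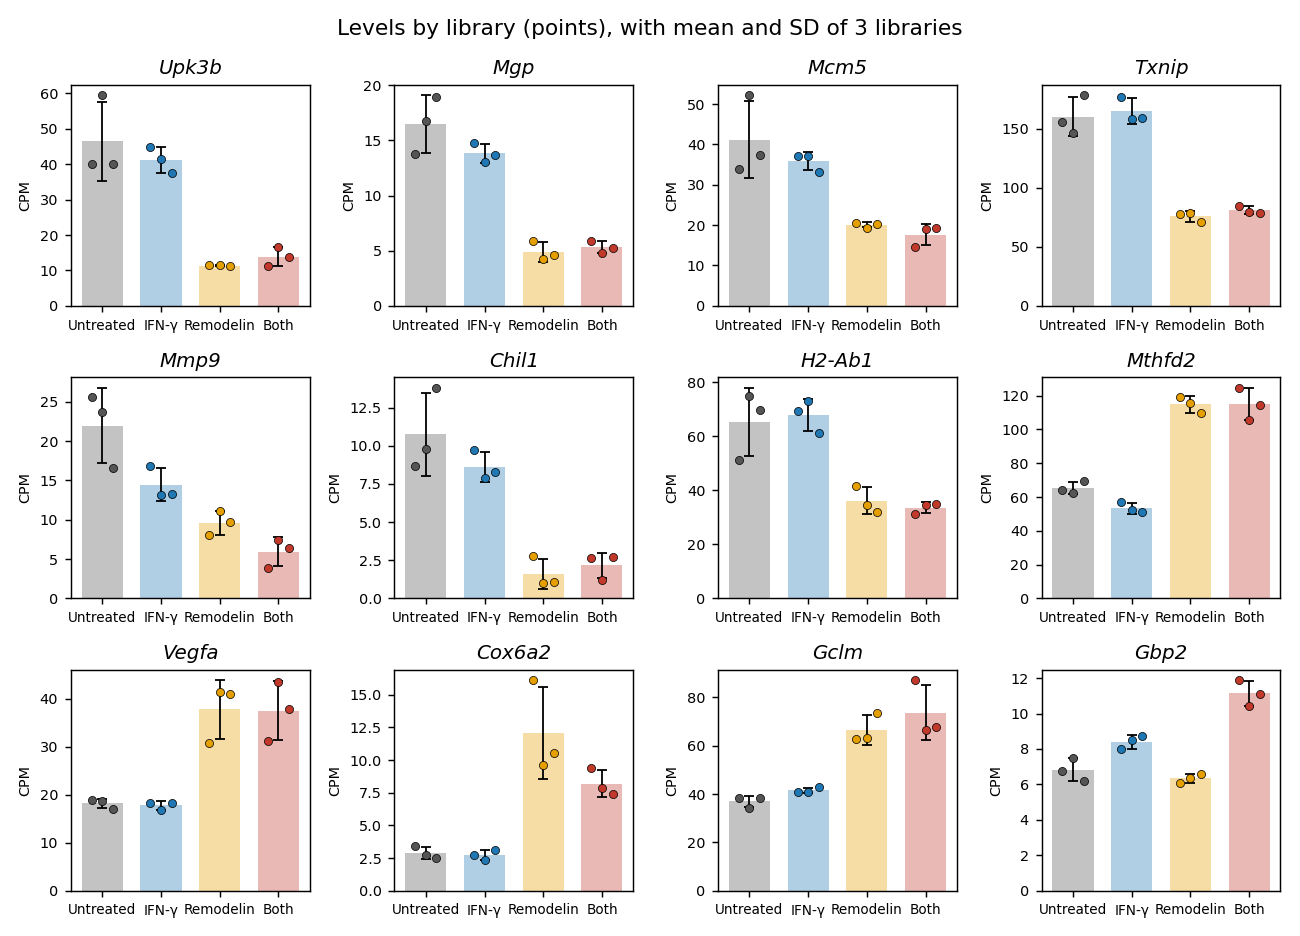
Level of named genes (CPM, linear vertical axis from 0) in every library of the 4 groups (horizontal axis), each point 1 library, each bar the mean of 3 and each error bar the SD. The untreated and combined points do not overlap for Upk3b (39.99 to 59.4 against 11.1 to 16.6 CPM), Txnip (146 to 178 against 78.6 to 84.7 CPM) or Mthfd2 (62.5 to 69.3 against 106 to 125 CPM).

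Among genes that rose, mt-Tp had the largest log2 fold change of those that kept their call throughout. It encodes the mitochondrial transfer RNA for proline, 67 bases long, so its counts may rest on short fragments, whose length was not examined. It was at 9.11, 5.54 and 3.69 CPM in untreated and 38.8, 60.0 and 21.3 CPM in combined libraries (log2 fold change 2.71 ± 0.33, adjusted p = 0.000526, edgeR). Snhg6, a host gene of small nucleolar RNA, went from 13.2, 16.9 and 16.3 CPM to 51.8, 35.7 and 31.5 CPM, a rise of 1.36 ± 0.21. Cox6a2, the cytochrome c oxidase subunit known from heart and skeletal muscle, was at 3.39, 2.71 and 2.50 CPM and then at 9.37, 7.83 and 7.40 CPM (1.51 ± 0.24, adjusted p = 0.00622, edgeR). Vegfa, the main ligand that drives blood vessel growth, was at 18.9, 18.7 and 17.0 CPM in untreated and 31.2, 43.5 and 37.9 CPM in combined libraries. Its log2 fold change was 1.04 ± 0.17 (adjusted p = 0.00653, edgeR). Car6, a secreted carbonic anhydrase, and Tnfsf9, the ligand of the costimulatory receptor 4-1BB, rose from levels under 1 CPM, by 2.04 ± 0.42 and 1.51 ± 0.37.

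Several other genes that rose were highest in combined library 1. Fabp7, a fatty acid carrier, was at 20.4 CPM there and at 6.94 and 6.17 CPM in combined libraries 2 and 3, against 2.71 to 4.34 CPM in untreated libraries. C1galt1c1, a chaperone for protein glycosylation, was at 47.0 CPM there and at 19.1 and 17.2 CPM in the others, and untreated libraries lay between 9.88 and 13.7 CPM. The collagenase Mmp13 (log2 fold change 1.71 ± 0.33), the lectin Clec2i (1.53 ± 0.26), the ubiquitin hydrolase Uchl3 (1.48 ± 0.32), Rmdn1 (1.37 ± 0.34), the valine-degrading enzyme Hibch (1.29 ± 0.34), Actr6 (1.28 ± 0.32), Ikbip (1.28 ± 0.26) and the mitophagy receptor Bnip3 (1.26 ± 0.24) were also highest in combined library 1. Of the 16 genes named as rising, mt-Tp and Snhg6 kept the call without any single library. The other 14 lost it without untreated library 2, 11 without untreated library 3 and 10 without combined library 1 (adjusted p 0.0523 to 0.231). Up to 4 were lost without any 1 library of IFN y alone, and 1 each without library 2 of Remodelin alone or combined library 3. In the fit without the GC trend 9 of the 16 were called, Cox6a2, Vegfa, mt-Tp, Car6 and Tnfsf9 among them.

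Sterol synthesis genes that passed the test all fell. Among all genes tested 2.05% fell. Of 25 genes for cholesterol synthesis and the sterol-sensing factor SREBP2 and its targets, 12 fell and 0 rose, with a median log2 fold change of -0.56. With the GC trend removed 7 were called lower and the median was again -0.56, and with each of the 6 compared libraries left out in turn the median stayed between -0.61 and -0.51. Mvd, which makes the isoprenoid precursor isopentenyl diphosphate, went from 81.2, 99.0 and 96.2 CPM to 44.6, 54.2 and 50.1 CPM (log2 fold change -0.89 ± 0.16, adjusted p = 0.0130, edgeR). Acat2, which makes acetoacetyl-CoA, changed by -0.94 ± 0.19, mevalonate kinase Mvk by -0.90 ± 0.19 and squalene epoxidase Sqle by -0.68 ± 0.16.

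Not all sterol genes were lower: Hmgcs1, which makes HMG-CoA, had a log2 fold change of 0.01 (adjusted p = 0.988) and the isomerase Idi1 of 0.02 (adjusted p = 0.965). Other sterol genes that fell included Fdps, Fdft1, Srebf2, Lss and Dhcr7. In the list for fatty acid synthesis and SREBP1, 4 of 16 genes fell and 0 rose, with a median of -0.42, or -0.39 and 2 called with the GC trend removed. They were Fads2, a desaturase (-0.92 ± 0.18), Fasn, fatty acid synthase (-1.19 ± 0.25), Srebf1, the transcription factor (-0.74 ± 0.19), and Elovl1, an elongase (-0.52 ± 0.14). For Fasn the untreated libraries lay at 88.9, 75.04 and 59.6 CPM and the combined ones at 18.3, 41.3 and 38.0 CPM, again lowest in combined library 1.

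None of the 8 lipid genes given with values as falling kept the call without every library in turn. All 8 lost it without untreated library 2 and without combined library 1, and 6 without untreated library 3 (adjusted p 0.0538 to 0.193). Libraries 1 to 3 of IFN y alone accounted for 3, 2 and 2 losses, combined library 3 for 2 and library 2 of Remodelin alone for 1. Acat2, Sqle and Fads2 were called when the GC trend was removed.

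Genes of the integrated stress response rose. In this response kinases that sense amino acid shortage, misfolded protein or haem lack phosphorylate eIF2α, and translation of the transcription factor ATF4 increases. ATF4 with a C/EBP partner binds a composite element, here searched as TGATGNAA on both strands in the 250 bases before the transcription start. RefSeq promoters of build GRCm38.p6 gave a match in 3.45% of 32851 such windows. Of the 7 list genes that rose, 5 held a match, and of 20 tested list genes that did not pass the test, 2 did. These are counts of genes, while the 3.45% is a share of windows, and Vldlr has 2 windows. The list was chosen with earlier results known, and no share was computed for called genes outside it. A match is a description of letters, not a bound site. The 5 sequences are shown because they belong to the genes that rose. They run 5′ to 3′ on the strand of the gene, with each match on either strand in capitals (2 in Slc7a11, 1 in each other), at chr6:7693210-7693258 on the minus strand (Asns), chr2:119351023-119351082 on the plus strand (Chac1), chr3:50443646-50443705 on the minus strand (Slc7a11), chr19:27216794-27216853 on the plus strand (Vldlr) and chr7:126625547-126625606 on the minus strand (Nupr1):
Asns: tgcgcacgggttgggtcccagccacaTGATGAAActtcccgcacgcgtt
Chac1: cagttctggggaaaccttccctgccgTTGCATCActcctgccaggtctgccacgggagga
Slc7a11: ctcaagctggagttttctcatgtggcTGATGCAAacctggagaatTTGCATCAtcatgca
Vldlr: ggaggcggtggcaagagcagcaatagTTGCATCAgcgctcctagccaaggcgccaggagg
Nupr1: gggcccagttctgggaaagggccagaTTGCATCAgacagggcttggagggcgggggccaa

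Of 28 genes tested in the integrated stress response list 7 rose and 0 fell, with a median log2 fold change of 0.24. With the GC trend removed 6 were called higher and the median was 0.49. Among all genes tested 2.44% rose, or 0.527% with the trend removed. Mthfd2, the mitochondrial folate enzyme, was at 64.0, 62.5 and 69.3 CPM in untreated and 125, 106 and 114 CPM in combined libraries. It rose by 0.81 ± 0.13 on the log2 scale (adjusted p = 0.00653, edgeR). Asns, asparagine synthetase, went from 39.7, 49.2 and 49.4 CPM to 81.0, 69.5 and 73.0 CPM (0.69 ± 0.15). Chac1, which degrades glutathione, went from 5.16, 5.97 and 5.65 CPM to 8.99, 11.6 and 11.8 CPM (0.95 ± 0.21). Nupr1, a stress-induced nuclear protein, changed by 1.07 ± 0.24, the cystine transporter Slc7a11 by 0.93 ± 0.24, the proapoptotic factor Ddit3 by 0.86 ± 0.23 and the lipoprotein receptor Vldlr by 1.36 ± 0.36. Atf4 itself was at 312, 375 and 376 CPM and then at 473, 399.9 and 410.2 CPM (0.27 ± 0.15, adjusted p = 0.225, edgeR). Of 20 genes of the unfolded protein response 0 passed the test, and their median was 0.05.

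NRF2, a transcription factor activated by electrophiles and oxidants, drives glutathione and detoxification genes. Of 27 such targets 4 rose and 0 fell, with a median of 0.13, or 2 and 0.18 with the GC trend removed. Among all genes tested 2.44% rose, or 0.527% with the trend removed. Gclm, the modifier subunit of the enzyme that limits glutathione synthesis, was at 38.5, 34.4 and 38.3 CPM in untreated and 87.0, 66.4 and 67.7 CPM in combined libraries (log2 fold change 0.99 ± 0.15, adjusted p = 0.00338, edgeR). The glutathione transferase Gsta3 changed by 1.36 ± 0.30 and catalase, Cat, by 0.70 ± 0.16. The fourth was Slc7a11, which both lists hold. Of the 11 genes named in these 2 lists, with Arrdc3, Gclm kept the call without any single library. The other 10 lost it without untreated library 2, 9 without combined library 1 and 7 without untreated library 3 (adjusted p 0.0521 to 0.213). Up to 4 were lost without any other single library. After GC trend removal 5 of the 11 were called: Mthfd2, Chac1, Nupr1, Gclm and Cat.

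Genes of DNA replication and mitosis were lower. Of 28 tested 5 fell and 0 rose, with a median log2 fold change of -0.45, or -0.42 with the GC trend removed. Mcm5, a subunit of the replicative helicase, was at 34.0, 52.1 and 37.5 CPM in untreated and 14.6, 19.1 and 19.3 CPM in combined libraries (-1.22 ± 0.18, adjusted p = 0.00320, edgeR). Its partner Mcm7 changed by -0.61 ± 0.16, thymidine kinase Tk1 by -0.97 ± 0.21, the mitotic kinase Plk1 by -0.96 ± 0.22 and Cdc20, an activator of the anaphase-promoting complex, by -0.88 ± 0.17. Among 10 inhibitors of cyclin-dependent kinases and D cyclins, Cdkn1c (p57) fell from 745, 877 and 894 CPM to 415, 528 and 455 CPM (-0.85 ± 0.15). Cdkn1a (p21) went the other way, from 80.3, 98.3 and 88.7 CPM to 114, 139 and 126 CPM (0.50 ± 0.14, adjusted p = 0.0478, edgeR). Of 19 targets of p53, 3 rose and 0 fell: Cdkn1a, Ccng1 (1.14 ± 0.27) and Mdm2, the ligase that limits p53 (0.84 ± 0.23). Among all genes tested 2.44% rose and 2.05% fell. Mcm5 kept its call without any single library. The other 8 named genes lost it without untreated library 2 and without combined library 1, and 6 without untreated library 3 (adjusted p 0.0511 to 0.224). Up to 4 were lost without any other single library, and with the GC trend removed Mcm5, Tk1 and Cdkn1a were called.

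Few of the genes by which IFN y is usually recognised passed the test. IFN y alone also changed little: against untreated libraries 2 of 13474 genes passed, 0.0148%, with 724 at an unadjusted p under 0.05 (edgeR). They were mt-Tp and the noncoding transcript Gm17066, named after their values were seen, and neither is a classical target of the cytokine. Whether the cells labelled as given IFN y received an active dose was not tested, and every value of the combined group is to be read with that limit. Of 14 genes of IFN y signalling 0 passed the test, with a median log2 fold change of -0.12, and 0 of 25 antiviral interferon-stimulated genes did, with a median of 0.12. Irf1, a transcription factor that IFN y induces, was at 18.8, 19.5 and 22.5 CPM in untreated and 16.2, 19.3 and 15.1 CPM in combined libraries, which overlapped (-0.27 ± 0.17, adjusted p = 0.304, edgeR). The feedback inhibitor Socs1 had a log2 fold change of -0.58 (adjusted p = 0.199). Nos2, the inducible nitric oxide synthase, had 0 reads in all 12 libraries, which in these 6 allows at most 0.154 to 0.188 CPM by counting error. The chemokine Cxcl9 had 2, 1 and 0 reads in untreated and 0 in each combined library, at or under the floor in both groups. Among 9 GBP and IRG GTPases, which attack intracellular pathogens, the median was 0.56, or 0.26 with the GC trend removed, and Gbp2 was the single one called. Gbp2 was at 6.78, 7.49 and 6.19 CPM in untreated and 11.9, 10.4 and 11.1 CPM in combined libraries (0.71 ± 0.17, adjusted p = 0.0356, edgeR), with no overlap.

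Several interferon-responsive genes were lower than in untreated cells. The chemokine Cxcl10 went from 2.68, 2.55 and 2.23 CPM to 0.812, 0.939 and 1.28 CPM (log2 fold change -1.29 ± 0.35, adjusted p = 0.0458, edgeR). With Serpina3g it made up the 2 that fell of 13 interferon-induced chemokines and effectors. Class II genes, which present peptides to CD4+ T cells, had 4 of 17 lower and 0 higher, with a median of -0.33. With the GC trend removed 3 were lower and the median was -0.15. Among all genes tested 2.05% were lower, or 0.631% with the trend removed. H2-Ab1 was at 51.2, 75.1 and 69.8 CPM in untreated and 31.3, 34.6 and 35.005 CPM in combined libraries (-0.96 ± 0.17, adjusted p = 0.0101, edgeR). H2-Eb1 changed by -0.92 ± 0.16, H2-Aa by -0.64 ± 0.16 and the invariant chain Cd74 by -0.73 ± 0.13. Ciita, the class II master regulator, was at 2.43, 1.74 and 1.63 CPM and then at 0.187, 0.835 and 0.990 CPM (-1.50, adjusted p = 0.0614, edgeR). Its value in combined library 1 was 3 reads, the floor of detection used here, against 16 and 17 reads in combined libraries 2 and 3. The class II genes and Ciita are also expressed by B cells and dendritic cells, whose marker sums were lower in the combined libraries too. The dendritic cell sum was mostly Batf3. The part of either cell type in the falls was not tested. Of 20 class I and immunoproteasome genes 0 passed the test (median -0.20, or -0.01 with the GC trend removed). Cd274, the ligand of PD-1, was at 48.0, 39.0 and 41.0 CPM and then at 67.9, 56.8 and 54.3 CPM (0.48 ± 0.16, adjusted p = 0.0721, edgeR).

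None of the 7 interferon-side genes that passed kept the call without every library in turn. All 7 lost it without untreated library 2 and 6 without combined library 1, H2-Eb1 being the exception, with adjusted p over all losses of 0.0533 to 0.197. Gbp2, Cxcl10 and H2-Aa were the 3 lost without untreated library 3 or any 1 library of IFN y alone, Gbp2 and H2-Aa without combined library 3, and Cxcl10 alone without untreated library 1, library 2 of Remodelin alone or combined library 2. With the GC trend removed H2-Eb1, H2-Ab1, H2-Aa and Serpina3g were called and Gbp2 was at adjusted p = 0.0970. The target of Remodelin, Nat10, was at 18.4, 19.9 and 16.02 CPM in untreated and 11.6, 19.4 and 16.7 CPM in combined libraries, which overlapped (-0.19 ± 0.21, adjusted p = 0.566, edgeR). Its adaptor Thumpd1 had a log2 fold change of 0.47 ± 0.19 (adjusted p = 0.119, edgeR). Messenger RNA levels say nothing of the enzyme's activity, and ac4C was not measured in these files.

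Some complement and tubulin genes fell, while some lipid-handling and ribosomal genes and 1 mitochondrially encoded gene rose. None of these calls held in all 12 fits without 1 library. Of all genes tested 2.44% were called higher and 2.05% lower, or 0.527% and 0.631% with the GC trend removed. Complement had 5 of 18 genes lower and 0 higher, or 1 lower with the GC trend removed: C1qa (log2 fold change -0.89 ± 0.17), C1qb (-0.67 ± 0.18) and C1qc (-0.59 ± 0.14), the chains of the recognition protein C1q, C4b (-0.95 ± 0.26) and Serping1, the inhibitor of C1 (-0.996 ± 0.19). Tubulins had 3 of 12 lower, or 1 with the GC trend removed: Tubb3 (-1.20 ± 0.23), Tuba1a (-0.84 ± 0.18) and Tubb4b (-0.53 ± 0.14), genes with near copies whose reads may be shared. Nectin2, an adhesion molecule and ligand of TIGIT, changed by -0.88 ± 0.15, the IL-4 receptor chain Il4ra by -0.83 ± 0.18, and the lysosomal enzyme Naglu by -0.72 ± 0.17. The scavenger receptor Cd36 was at 759, 845 and 629 CPM in untreated and 2905, 1097 and 1076 CPM in combined libraries (1.19 ± 0.29). The elastase Mmp12 was at 2565, 3355 and 3002 CPM and then at 8200, 4207 and 3874 CPM (0.87 ± 0.23). Combined library 1 was far above the other two for both genes.

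The fatty acid carrier Fabp4 (log2 fold change 0.80 ± 0.21), the mitochondrially encoded oxidase subunit mt-Co1 (0.94 ± 0.24) and the ribosomal protein genes Rpl4 (0.96 ± 0.23), Rpl23 (0.87 ± 0.20) and Rps24 (0.83 ± 0.23) were also highest in combined library 1. Of 40 ribosomal protein genes these 3 rose, or 0 with the GC trend removed, and the median was 0.20. Among all genes tested 2.44% rose. Reads of ribosomal protein genes may be shared with their pseudogenes. Of 12 mitochondrially encoded genes 1 rose, or 0 with the GC trend removed. Their median was 0.04, and -0.39 with the trend removed, so the direction of that list turned with the scaling. None of the 19 genes of this group, Ighm included, kept the call without every library. All 19 lost it without untreated library 2, 18 without combined library 1, 16 without untreated library 3 and 12 or 13 without any 1 library of IFN y alone (adjusted p 0.0504 to 0.250). Up to 5 were lost without any other single library. Serping1, Nectin2 and Tubb3 were called when the GC trend was removed. The identity genes of large peritoneal macrophages had 1 higher of 22, Car6, and a median of 0.10. Their factor Gata6 had a log2 fold change of -0.19 (adjusted p = 0.593).

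**Figure D4:**
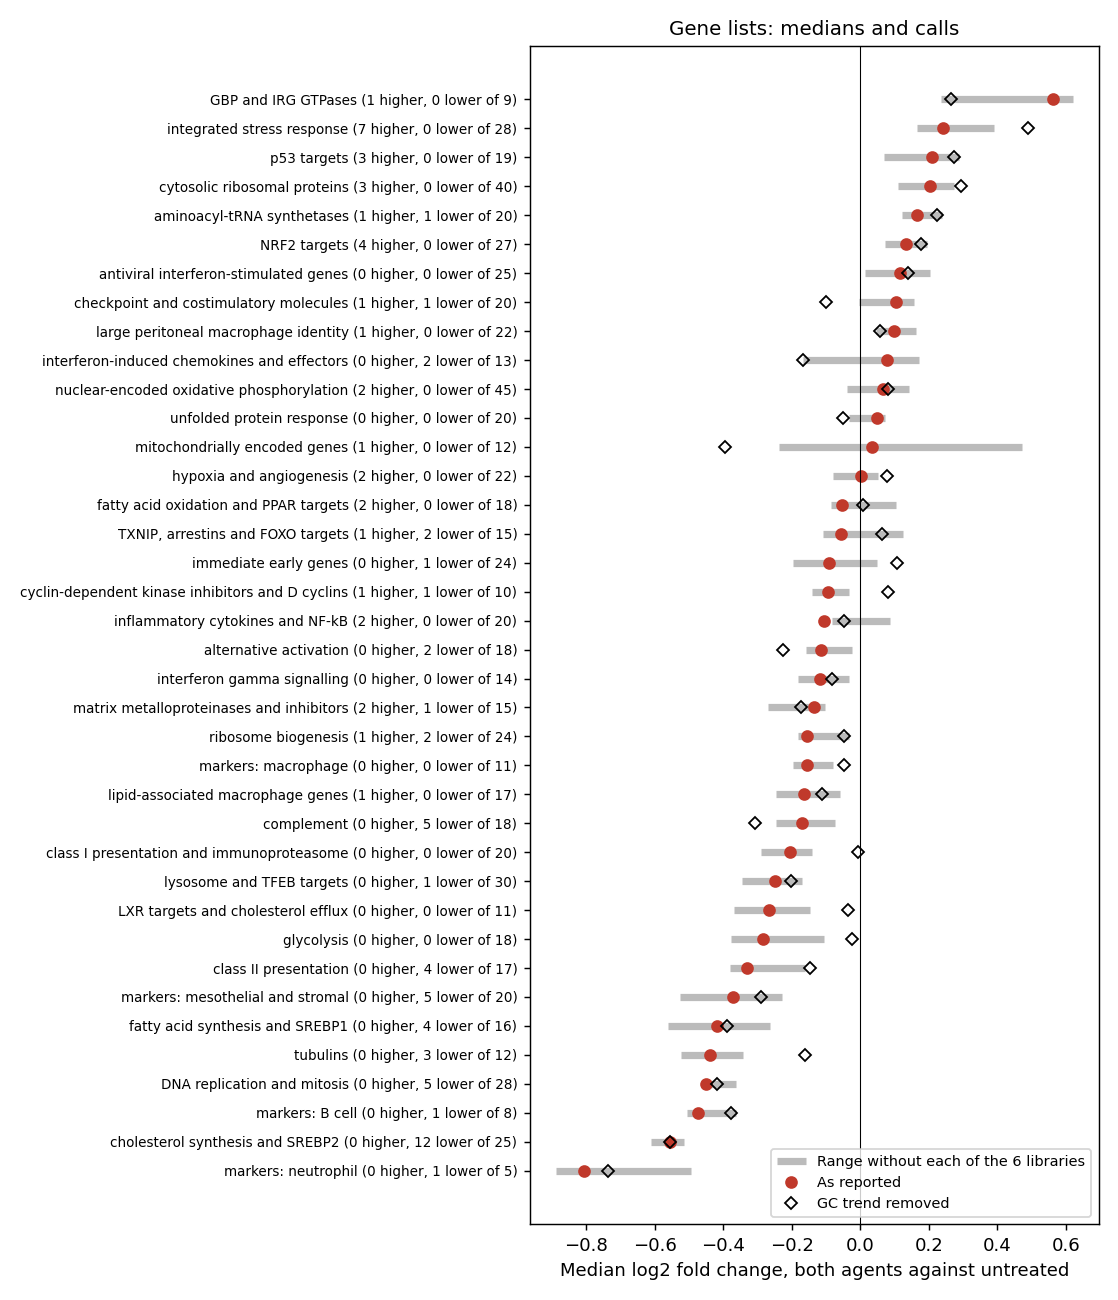
Median log2 fold change, combined over untreated, of gene lists with at least 5 genes tested (vertical axis), as reported (filled circles) and with the GC trend removed (open diamonds), with the range over fits without each of the 6 compared libraries in grey (horizontal axis, log2 scale). Cholesterol synthesis lies at -0.56 in both fits and the integrated stress response at 0.24 and 0.49, while the mitochondrially encoded genes move from 0.04 to -0.39.

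The combined group was next tested against each agent alone, to see which of its differences from untreated cells each agent alone did not show. Against IFN y alone 49 of 13474 genes differed, 0.364%, with 19 higher and 30 lower in the combined libraries. With the GC trend removed 70 differed, 0.52%. Upk3b was at 44.8, 41.5 and 37.6 CPM with IFN y alone, and the combined libraries were lower by a log2 difference of -1.57 ± 0.19 (adjusted p = 0.00134, edgeR). Mthfd2 was at 56.9, 52.0 and 50.9 CPM with IFN y alone, against 106 to 125 CPM with both agents (1.11 ± 0.13, adjusted p = 0.00134, edgeR). Txnip (-1.03, adjusted p = 0.00266), Ddit4l (-1.95, adjusted p = 0.00295) and H2-Ab1 (-1.01, adjusted p = 0.0110) were lower with both agents than with IFN y alone. Cox6a2 (1.57, adjusted p = 0.00607), Gsta3 (2.09, adjusted p = 0.00549) and Vegfa (1.07, adjusted p = 0.00656) were higher. These genes were named from the comparison with untreated, which holds the same combined libraries, so their p-values here are no independent evidence. The count of genes that differed from IFN y alone was 115 without untreated library 1 and 144 without library 1 of Remodelin alone. It was 11, 10 and 19 without libraries 1 to 3 of IFN y alone, and 26, 23 and 16 without combined libraries 1 to 3.

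Against Remodelin alone 0 genes (0%) passed the edgeR test, with 1043 at an unadjusted p under 0.05, and limma-voom called 0 and DESeq2 1. A count of 0 does not show that the groups were alike. The levels lay close for several leading genes: Upk3b was at 11.5, 11.4 and 11.2 CPM with Remodelin alone (log2 difference, combined minus Remodelin, 0.29 ± 0.19) and Mthfd2 at 119, 116 and 109.5 CPM (0.00 ± 0.13). Txnip was at 78.2, 78.5 and 70.8 CPM with Remodelin alone (0.09 ± 0.13). Gbp2, the GTPase that rose against untreated, was at 6.09, 6.34 and 6.59 CPM with Remodelin alone and 10.4 to 11.9 CPM with both agents. Its log2 difference was 0.81 ± 0.17, with an adjusted p of 0.636 over all genes.

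Side by side, each against the same untreated libraries, Txnip had log2 fold changes of 0.04 with IFN y alone, -1.08 with Remodelin alone and -0.98 with both. Mthfd2 had -0.29, 0.81 and 0.81 in that order, and Vegfa -0.03, 1.05 and 1.04. Gbp2 had 0.30, -0.11 and 0.71. Some named genes moved more with IFN y alone than with Remodelin alone. Uchl3 had 1.145, 0.52 and 1.48 and Actr6 1.02, 0.42 and 1.28. Neither passed the test with IFN y alone (adjusted p = 0.846 and 0.889, edgeR). The mesothelial and stromal markers had medians of -0.28 with IFN y alone, -0.37 with Remodelin alone and -0.37 with both. The genes shown are examples, and how many followed either agent was not counted. Because the 3 comparisons share the untreated libraries, no likeness between them was computed.

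The departure of the combined group from the sum of both single effects was tested as an interaction on the log2 scale. For 1 gene, 0.00742% of those tested, it passed (310 at an unadjusted p under 0.05). That gene was mt-Tp, which was at 49.5, 62.6 and 55.4 CPM with IFN y alone and at 30.6, 33.0 and 36.4 CPM with Remodelin alone. Its log2 fold changes were 3.19 with IFN y, 2.44 with Remodelin and 2.71 with both, so the combined level was under the sum by 2.92 ± 0.44 (log2 departure -2.92, adjusted p = 0.0481, edgeR). Without the GC trend 0 genes passed, and the count was 0 or 1 with each library left out.

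**Figure D5:**
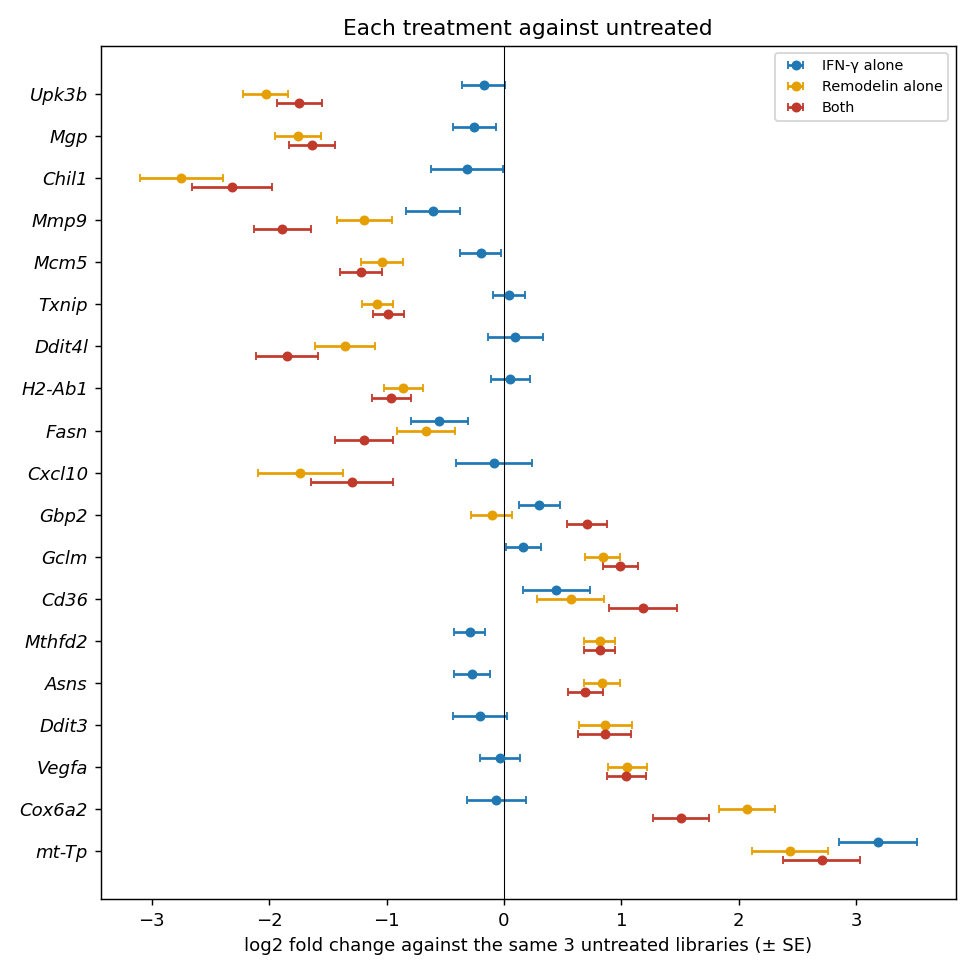
Log2 fold change over untreated (horizontal axis, bars ± SE) of named genes (vertical axis) with IFN y alone, Remodelin alone and both. For Txnip the values are 0.04, -1.08 and -0.98 and for mt-Tp 3.19, 2.44 and 2.71, and all 3 comparisons share the same untreated libraries.

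In the authors' deposited table the comparison of combined with untreated libraries had 717 genes with an adjusted p under 0.05, 430 higher and 287 lower. Of those in the authors' deposited table, 520 were among the 605 given here, all in the same direction, which is 72.5% of the authors' list and 86.0% of the edgeR list. Both lists come from the same libraries, so their overlap is no independent evidence.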

How the data were processed

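Reads per gene were measured in 12 libraries of 4 groups of 3. The deposited table holds raw counts for 55586 genes, FPKM and, per the file headers, the authors' log2 fold changes and p-values. The deposited FPKM and gene lengths entered no test. The submitters' processing notes name CASAVA 1.8, HISAT2 2.0.5 and featureCounts 1.5.0-p3. The genome build, annotation and strand setting were not given in the sources used here, so reads of overlapping and antisense genes cannot be told apart.

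Counts were tested with edgeR 4.0.16 (R 4.3.3): trimmed mean of M-values, the default count filter by group (13474 genes kept), 1 quasi-likelihood fit of all 12 libraries with a mean per group, and Benjamini-Hochberg adjustment over all genes tested, called under 0.05. A standard error is the absolute log2 fold change over the square root of F. GC content and length came from the longest GENCODE M21 transcript (98.998% of genes tested matched). Their trends were removed by an offset per library from natural splines with 5 degrees of freedom on log2 CPM with a prior count of 2. The alternatives were DESeq2 1.42.0, limma 3.58.1 (voom), other filters and scalings, a replicate block, the 2 groups alone and each library left out. Leaving out libraries of the single agents, and GC removal with combined library 1 left out or with the 2 groups alone, were chosen after seeing the data.

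The members, the 45 gene lists (10 of them cell type markers) and the naming rule were chosen with earlier results of these data known. The rule named the 12 largest rises and falls among called genes with at least 5 CPM, established symbols and groups that did not overlap, up to 5 called genes per list by p, a fixed set of 24 genes, and genes called in the interaction. On simulated counts for this comparison over 13474 genes the fit recovered 17.9% of genes changed 1.5-fold, 59.7% changed 2-fold and 92.4% changed 4-fold. There were 5 false calls among 118. The simulated libraries held no GC trend, so these figures cannot give the rate of false calls in the real libraries, which differed in it. A few genes that the rule names are not reported here.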

Additional observations from a re-analysis of the deposited data

Results flagged for a closer look

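The mitochondrial transfer RNA gene mt-Tp stood out because the combined group departed from the sum of the single effects by a log2 value of -2.92 ± 0.44 (adjusted p = 0.0481, edgeR interaction test). It was higher than in untreated libraries in 3 of 3 libraries with IFN y alone, 3 of 3 with Remodelin alone and 3 of 3 with both. The untreated libraries held 3.69 to 9.11 CPM and the combined libraries 21.3 to 60.0 CPM.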

How the results depend on the processing

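No named gene that passed the test changed the sign of its log2 fold change under any alternative. Nat10, which did not pass, changed sign under some. Of 45 gene lists, 16 had medians that changed sign, among them the unfolded protein response, LXR and cholesterol efflux, glycolysis, ribosome biogenesis, oxidative phosphorylation, the inflammatory cytokines and the mitochondrially encoded genes. The count of genes called in combined against untreated, 605 as reported, was 1565 with no filter on low counts (1091 higher, 474 lower), 1797 with DESeq2, 161 with the replicate number as a block, 156 with the GC trend removed, 30 with the block and the GC trend removed, 86 with only the 2 groups compared, 31 with the GC trend removed and combined library 1 left out, and 43 with the GC trend removed and only the 2 groups. It ran from 16 to 1443 with 1 library left out. Against IFN y alone the count of 49 was 271 with no filter, 264 with DESeq2, 24 with the replicate block, 83 with only the 2 groups and 383 after removal of trends with both GC and length, and 10 to 144 with 1 library left out. Against Remodelin alone the count of 0 was 6 with no filter and 1 with DESeq2, and 0 in every fit with 1 library left out. The interaction count of 1 was 19 with no filter, 0 with at least 50 reads in 3 libraries, 0 with the GC trend removed with or without combined library 1, and 0 to 1 with 1 library left out. It could not be fitted with only 2 groups. The cause of these moves was not tested. Same-numbered untreated and combined libraries had deviations from their group means correlated at -0.0235, 0.0682 and 0.00505. Pairs with different numbers ran from -0.0562 to 0.0395. The labels do not say whether a number marks a shared animal, batch or day. So few values, in libraries with their own GC trends, cannot settle it. At this depth and with 3 libraries a group, changes under 2-fold were often missed on simulated counts, which held no GC trend.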

Other observations

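Other lists showed few changes in combined against untreated libraries, where 4.49% of all genes tested were called. Of 18 glycolysis genes 0 passed the edgeR test, with a median log2 fold change of -0.28, or -0.02 with the GC trend removed. Of 11 genes of LXR and cholesterol efflux 0 passed, with a median of -0.27, or -0.04 with the GC trend removed. Among 20 aminoacyl-tRNA synthetases 1 rose and 1 fell, with a median of 0.17. Among 24 ribosome biogenesis factors 1 rose and 2 fell, with a median of -0.15. Of 45 nuclear-encoded genes of oxidative phosphorylation 2 rose, Cox6a2 and Uqcrb, and the median was 0.07. Of 20 inflammatory cytokine and NF-kB genes 2 rose, the neutrophil chemokine Cxcl2 and the cytokine Il18, with a median of -0.11. Cxcl2 and Il18 were not called with the GC trend removed.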
